A study of Sus scrofa with 6 samples.

Results

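The genes described here encode the subunits of oxidative phosphorylation, and were measured in pig embryonic cortex at embryonic day 60 (E60), before the cortex folds, and at embryonic day 80 (E80), when the primary folds are present. Members were chosen by gene symbol alone. They are the probe sets with exactly 1 symbol that names a subunit of complex I (NDUF), complex II (SDHA to SDHD), complex III (UQCR, CYC1), complex IV (COX4 to COX8) or complex V (ATP5), or cytochrome c (CYCS). Of the 10069 probe sets with exactly 1 symbol, 81 met this rule, and they stand for 64 of 6765 genes. By function, 32 of the 64 encode complex I subunits, 4 complex II, 2 complex III, 8 complex IV, 13 complex V and 1 cytochrome c. The other 4 share the name pattern without being subunits, and are the complex I assembly factors NDUFAF1, NDUFAF2 and NDUFAF3 and the ATP synthase coupling factor B gene ATP5S. NDUFA4 was counted in complex IV, to which its protein belongs despite the name. Where a gene had several probe sets, the one with the highest mean signal represents it.

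The arrays are 1-colour Affymetrix Pig Genome Arrays, 3 with RNA from E60 cortex and 3 with RNA from E80 cortex, each from 1 embryo. No treatment or genetic change was involved. The labels speak of litter mates without saying which embryos shared a litter, so litter and day cannot be told apart. The p-values set each difference against the spread between these embryos, which limma moderates with that of probe sets of like signal. Whether this spread includes differences between litters is not known. Each value is a linear MAS5 signal, and every difference is log2 of E80 over E60, above 0 where E80 was higher. The words rose and fell are kept for genes with an adjusted p under 0.05 in limma over all 23999 probe sets that are not controls. Signals of different probe sets are not compared with each other, since each probe set has its own brightness.

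Oxidative phosphorylation takes place in the inner mitochondrial membrane. Complexes I and II pass electrons from NADH and succinate to ubiquinone, complex III passes them on to cytochrome c, and complex IV hands them to oxygen. Complexes I, III and IV pump protons, and complex V, the ATP synthase, uses their return to make ATP. A few subunits of complexes I, III, IV and V are encoded by mitochondrial DNA and all others by nuclear genes. Neurons depend on this pathway for ion pumping at synapses, while dividing progenitors are known to rely more on glycolysis.

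A single member rose from E60 to E80, the complex IV subunit COX7C, and none fell. Its mean signal was 2188 ± 226 at E80 and 1268 ± 108 at E60 (SD, n = 3 arrays each), a 1.72-fold difference. Over all probe sets 0.933% had risen and 1.01% had fallen (224 and 243), 1.95% in either direction, so a single call among 64 members is near the background. With every array centred on its median signal in place of the authors' scaling, 311 had risen and 108 had fallen, and the median of all probe sets moved up by 0.12 on the log2 scale. Most differences were small and positive. The log2 difference was above 0 for 54 of 64 members, against 44.3% of all probe sets. The median over the members was 0.11 on the log2 scale, a 1.08-fold difference, against -0.05 over all probe sets. Only 4 members differed by more than 0.5 on the log2 scale, which are COX7C, COX7A1 and ATP5I above 0 and CYCS below. A difference of this size in either direction was seen in 6145 of all 23999 probe sets, a larger share. Among the brightest 25% of probe sets it was seen in 622 of 6000, and for 2 of the 55 members there. All 3 arrays of E80 lay above all 3 of E60 for 20 members, or 31.2%, while 9.25% of all probe sets had this order. The opposite order was seen for 1 member, CYCS, and in 14.4% of all probe sets. At an unadjusted p under 0.05 in limma, 14 members were higher (7.12% of all probe sets) and 1 was lower (10.8%).

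**Figure D1:**
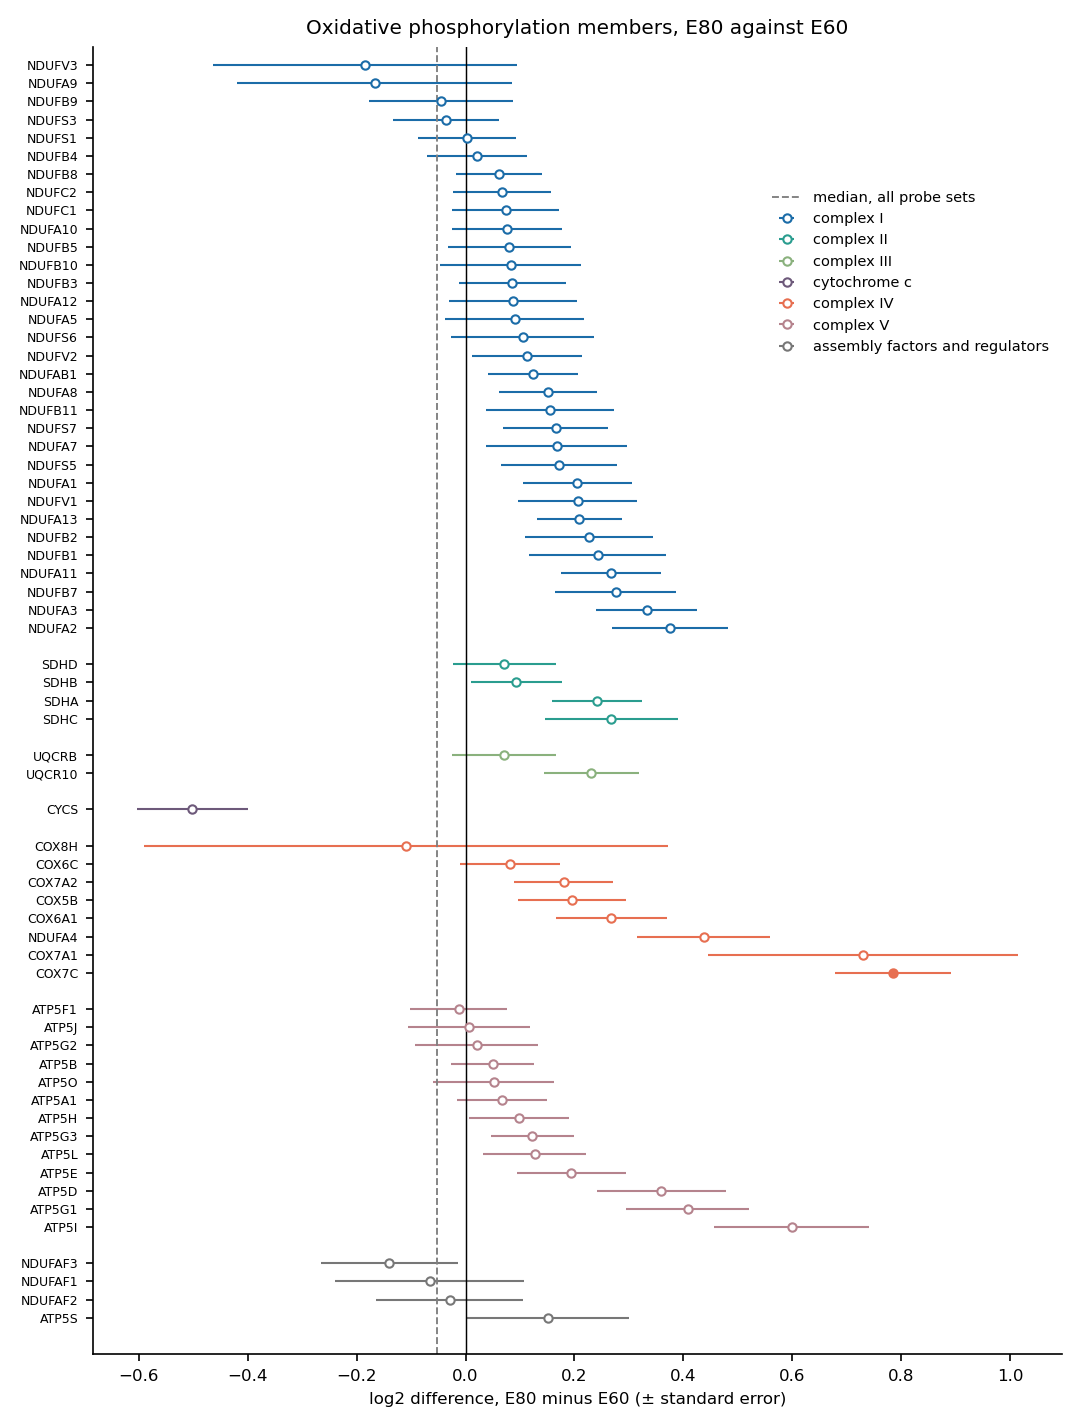
Log2 difference between E80 and E60 for each of the 64 members, grouped by complex (horizontal axis; bars are standard errors from limma). The filled point, COX7C, is the member that passed the test, most open points lie between 0 and 0.4, and CYCS lies at -0.50.

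Part of this tilt is shared with other bright probe sets. Of the 64 members, 55 were in the brightest 25% of all probe sets, where the median log2 difference was 0.02 and 53.1% of probe sets were above 0. In that range of signal all E80 arrays lay above all E60 arrays for 17.4% of probe sets and for 17 of the 55 members (30.9%). Among probe sets with a mean signal of 100 to 500, the median log2 difference was 0.10 for 17 members and -0.06 for the 7302 others. Between 500 and 1000 it was 0.10 for 22 members and 0.05 for 1337 others. Above 1000 it was 0.12 for 19 members and also 0.12 for 757 others, so that no gap in the median was seen among the brightest. In this band 17 of the 19 members (89.5%) and 76.2% of the others were above 0. All E80 arrays lay above all E60 arrays for 6 of these members and for 29.7% of the others. Quantile normalization, which forces the distribution of signals to be the same on every array, left 45 of the 64 members above 0 and a median of 0.06.

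**Figure D2:**
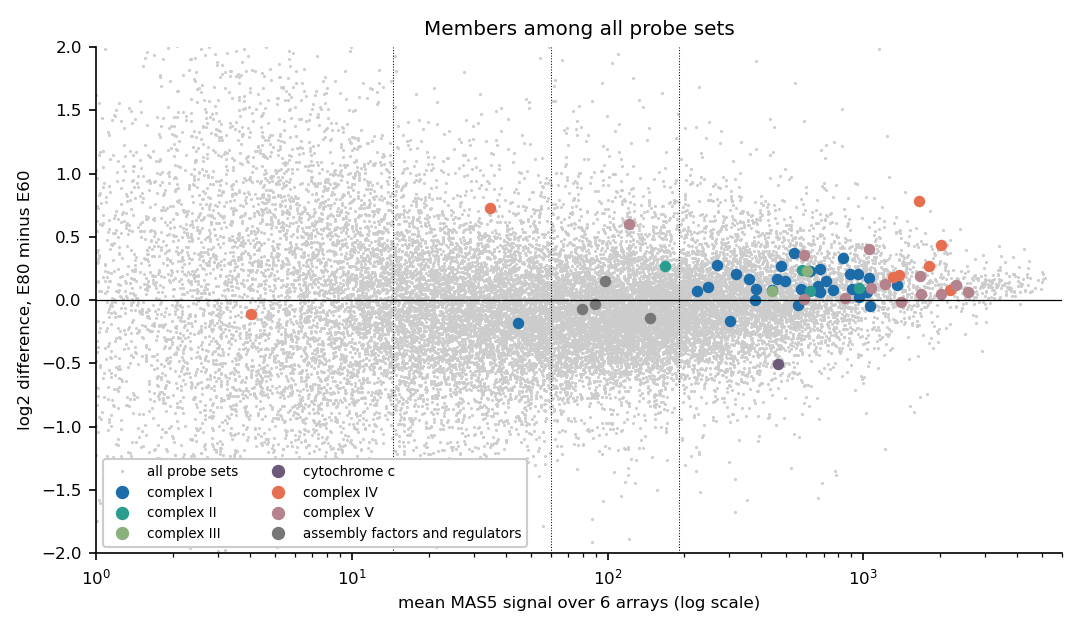
Log2 difference between E80 and E60 (vertical axis) against the mean MAS5 signal over the 6 arrays (horizontal axis, log scale) for the members, coloured by complex, and all probe sets in grey. Dotted lines mark the quartiles of signal; probe sets with a signal under 1 or a difference beyond 2 are not drawn. Most members lie in the brightest 25% (55 of 64), a little above 0.

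The arrays of one day also differed among themselves. Taken over the 64 members, the median log2 signal relative to the mean of the E60 arrays was -0.03, -0.03 and 0.08 on E60 replicates 1, 2 and 3, and 0.07, 0.20 and 0.11 on E80 replicates 1, 2 and 3. E60 replicate 3 thus lay just above E80 replicate 1. On E60 replicate 3, 50 of 64 members were above their E60 mean, against 21 and 22 on the other E60 arrays. E80 replicate 2 was the highest array for the members, with 56 of 64 above the E60 mean. The days overlapped in the medians of complexes I, IV and V and did not overlap for complex II (4 members) and, by a very narrow gap, for complex III (2 members). Over all probe sets the median ran from -0.04 to 0.02 at E60 and from -0.08 to -0.00 at E80. E60 replicate 3 was the lowest E60 array over all probe sets and the highest for the members, while E80 replicate 2 was the highest E80 array in both.

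**Figure D3:**
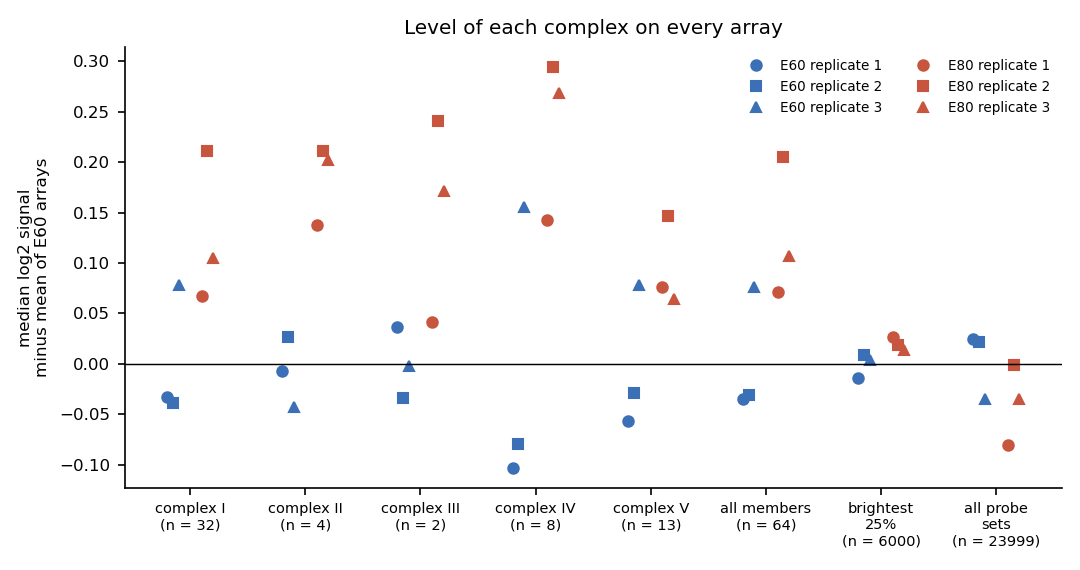
Median log2 signal of each complex on every array, relative to the mean of the E60 arrays (vertical axis); blue is E60 and red E80, and the shapes are replicates 1, 2 and 3. For all members E60 replicate 3 (0.08) lies above E80 replicate 1 (0.07), while the brightest 25% of all probe sets stays between -0.01 and 0.03.

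Complex IV holds the member that rose. Its median log2 difference was 0.23 over 8 genes, from -0.11 to 0.79, beside 0.11 for complex I, 0.17 for complex II, 0.15 for complex III and 0.10 for complex V. The ranges of the complexes overlap, no test was made over a complex as a whole, and their order was not kept with quantile normalization, where the median was 0.11 for complex IV, 0.11 for complex II and 0.12 for complex III. COX7C is a small nuclear-encoded subunit of the membrane part of complex IV. Its signal was 1227, 1188 and 1391 on the arrays of E60 and 1942, 2237 and 2385 on those of E80. The days were well apart, with every E80 array above the highest E60 array by far more than the spread within E60. The COX7C log2 difference was 0.79 with a standard error of 0.11 (adjusted p = 0.0176 from limma). The call was lost without E60 replicate 1 (adjusted p = 0.0910), without E60 replicate 2 (0.0951), without E80 replicate 1 (0.0788) and in limma without the intensity trend (0.141), while the difference stayed at 0.72 to 0.87 when single arrays were left out. A second, dimmer probe set of COX7C did not show the difference. Its signals were 101 to 134 at E60 and 116 to 125 at E80, a log2 difference of 0.04 (standard error 0.14, adjusted p = 0.911), and the mean of both probe sets did not pass (0.41, adjusted p = 0.0660).

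The next complex IV subunit, NDUFA4, had signals of 1544, 1653 and 2039 at E60 and 2211, 2599.9 and 2247 at E80. Here too the days did not overlap, but the log2 difference of 0.44 (standard error 0.12) did not pass the test (adjusted p = 0.111). COX6A1, the form of subunit 6A found outside heart and muscle, had signals of 1617, 1499 and 1861 at E60 and 1863, 2038 and 2074 at E80. The lowest E80 array stood only just above the highest E60 array, E60 replicate 3, and the log2 difference was 0.27 (standard error 0.10, adjusted p = 0.216). COX7A1 and COX7A2 encode the muscle and the general form of the same subunit. COX7A1 was dim, at 21.6, 26.6 and 34.2 at E60 and 37.2, 39.6 and 60.8 at E80. The days did not overlap, and with the spread of dim signals the log2 difference of 0.73 (standard error 0.28) did not pass (adjusted p = 0.229). With 32 added to each signal it was 0.38. COX7A2 had signals of 1168, 1193 and 1335 at E60 and 1329.6, 1499 and 1358 at E80, which overlap, and a log2 difference of 0.18 (standard error 0.09, adjusted p = 0.349). COX6C had one of 0.08 (adjusted p = 0.694), which was -0.05 after quantile normalization. COX8H, the heart form of subunit 8, had signals of only 3.39 to 5.82 over the 6 arrays.

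CYCS, the soluble electron carrier between complexes III and IV, was the member that went furthest in the other direction. Its signal was 608, 562 and 500.04 at E60 and 376, 388 and 412 at E80. All arrays of E80 were below all of E60, a 1.42-fold lower signal at E80 (log2 difference -0.50, standard error 0.10). The adjusted p of 0.0516 in limma was just above the threshold. Over 15 other settings it was between 0.0218 and 0.195, and it was under 0.05 in 5 of them, among which are quantile normalization (0.0488) and the test without E60 replicate 3 (0.0498). The difference was below 0 in each of them, from -0.58 to -0.39. Apart from its place in the chain, cytochrome c is known as the trigger of the apoptosome once it leaves mitochondria.

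Complex I, which takes electrons from NADH, had no member past the test in limma (5 were higher and 0 lower at an unadjusted p under 0.05). At that limit 7.12% of all probe sets were higher and 10.8% lower. In the brightest 25%, 924 of 6000 probe sets were higher at that limit, a share close to that of 5 in 32. The 32 subunits of complex I had a median log2 difference of 0.11, from -0.18 to 0.38, and 28 of them were above 0. For 9 of the 32 (28.1%) all E80 arrays lay above all E60 arrays, against 9.25% of all probe sets and 17.4% of the brightest 25%, which holds 31 of the 32. The 2 largest differences were in NDUFA2 and NDUFA3. NDUFA2, of the matrix arm that oxidises NADH, had signals of 413, 509 and 499 at E60 and 577, 631 and 629 at E80 (log2 difference 0.38, standard error 0.11, adjusted p = 0.117). NDUFA3, of the membrane arm, had 749, 674 and 806 at E60 and 965, 908 and 927 at E80 (0.33, standard error 0.09, adjusted p = 0.111). In both the days were apart by less than the difference between the lowest and highest array of E60.

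By the parts of complex I, the 9 subunits of the membrane arm next to the matrix arm were all above 0, with a median log2 difference of 0.17 (0.07 to 0.33). Among them 4 of 9 (44.4%) kept the days apart, with all E80 arrays above all E60 arrays. These were NDUFA3, given above, NDUFA11 (0.27), NDUFA13 (0.21), also known as GRIM-19, and NDUFA8 (0.15). For NDUFA11, NDUFA13 and NDUFA8 the adjusted p was 0.177, 0.213 and 0.427. This order was seen in 9.25% of all probe sets and in 17.4% of the brightest 25%, which holds all 9. In the outer membrane arm 10 of 11 were above 0, with a median of 0.09, and NDUFB7 (0.28, adjusted p = 0.245) and the acyl carrier protein NDUFAB1 (0.12, adjusted p = 0.486) kept the days apart. That is 2 of 11 (18.2%), close to the share in the brightest 25% of probe sets, which holds all 11. NDUFB9 in this arm had a log2 difference of -0.04 (adjusted p = 0.897). In the NADH-oxidising part 7 of 8 were above 0, with a median of 0.11, among them the flavin-binding subunit NDUFV1 (0.21, adjusted p = 0.372). NDUFS1, which carries several of the iron-sulphur clusters in this arm, had signals of 363 to 398 at E60 and 360.3 to 391 at E80 and a log2 difference of 0.0031 (adjusted p = 0.991). The lowest value of complex I, -0.18 in NDUFV3 (adjusted p = 0.782), came from a dim probe set with overlapping days. In the part that reduces ubiquinone 2 of 4 were above 0, with a median of 0.03. There the iron-sulphur subunit NDUFS7 was at 0.17 (adjusted p = 0.415) and NDUFA9 at -0.17 (adjusted p = 0.781), with overlapping signals of 238 to 378 at E60 and 197 to 349 at E80.

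NDUFS3, also of the ubiquinone-reducing part, is the member whose probe sets disagreed most. Its brightest probe set had signals of 526 to 619.5 at E60 and 525 to 578 at E80 (log2 difference -0.04, adjusted p = 0.888). A dimmer one had 60.9, 70.5 and 56.7 at E60 and 96.6, 118 and 176 at E80, which do not overlap (1.01, standard error 0.23, adjusted p = 0.0672), and the remaining one was at -0.06. Which transcript each probe set reads was not tested. In all, 14 members had more than 1 probe set, with 17 further probe sets. Of these 12 had the same sign as the brightest one, and none passed the test. Of the 10 that were brighter than the median probe set, 9 had the same sign, with NDUFS3 as the exception. The further probe set of ATP5I was dim (21.6 to 39.9 over the 6 arrays) and at -0.27 (adjusted p = 0.658).

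**Figure D4:**
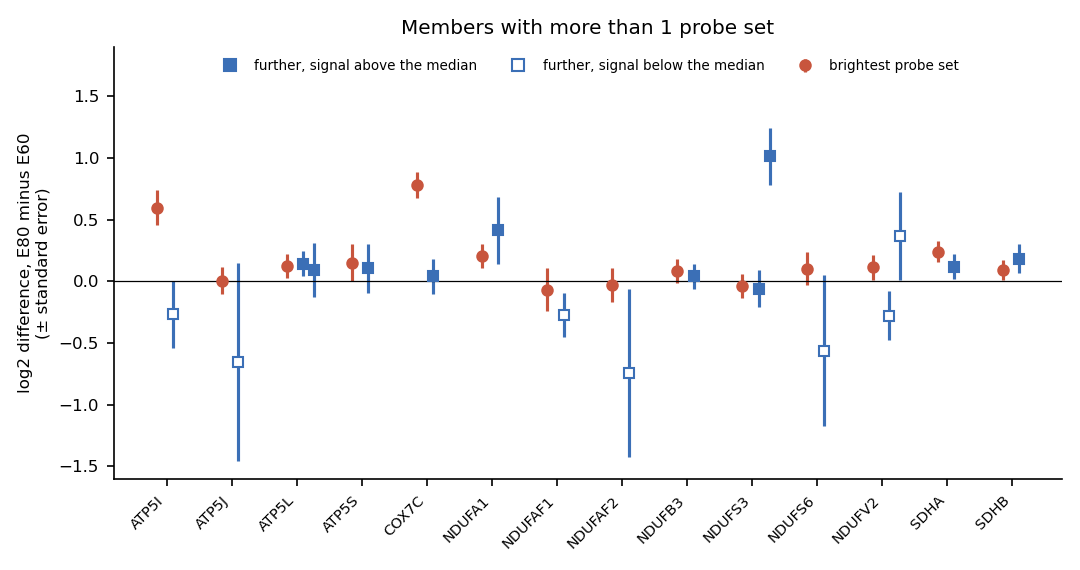
Log2 difference between E80 and E60 (vertical axis; bars are standard errors from limma) for the 14 members with more than 1 probe set, with the brightest in red and the 17 others in blue, filled where they are brighter than the median probe set. The probe sets of COX7C (0.79 and 0.04) and NDUFS3 (-0.04, -0.06 and 1.01) stand apart from each other.

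All 4 genes of complex II, succinate dehydrogenase, which also serves the citric acid cycle, were higher at E80 without passing the test. SDHA, the flavin-bearing catalytic subunit, had signals of 528, 559 and 509 at E60 and 623, 619 and 644 at E80 (log2 difference 0.24, standard error 0.08, adjusted p = 0.177). The days were apart, and the other probe set of SDHA was at 0.12 (adjusted p = 0.593). SDHC, a membrane anchor, had 138, 174 and 151 at E60 and 178, 189.7 and 186 at E80 (0.27, standard error 0.12, adjusted p = 0.301), with E60 replicate 2 close to the arrays of E80. The iron-sulphur subunit SDHB (0.09, adjusted p = 0.610) and the other anchor SDHD (0.07, adjusted p = 0.748) overlapped between the days, and SDHB was at -0.01 after quantile normalization.

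Complex III was represented by only 2 small subunits. UQCR10 had signals of 566, 541 and 565 at E60 and 606, 678 and 681 at E80, with no overlap (log2 difference 0.23, standard error 0.09, adjusted p = 0.214). UQCRB had 445, 422 and 423 at E60 and 419, 494 and 446 at E80, which overlap (0.07, standard error 0.10, adjusted p = 0.749). The UQCRB probe set is of a kind that several transcripts can share. CYC1 and the core proteins of complex III were not analysed here, nor were COX4I1 and COX5A.

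In complex V, the ATP synthase, 12 of 13 genes were above 0 with a median log2 difference of 0.10, and the largest differences were in ATP5I, ATP5G1 and ATP5D. ATP5I, the e subunit, which helps ATP synthases pair up in the membrane, had signals of 105, 92.5 and 98.0 at E60 and 163, 159 and 127 at E80. The days did not overlap (log2 difference 0.60, standard error 0.14), and the adjusted p was 0.0771. ATP5D, the delta subunit of the rotating stalk, had 454, 513 and 606 at E60 and 696, 628 and 682 at E80 (0.36, standard error 0.12, adjusted p = 0.163). The catalytic head with its rotating stalk had a median of 0.13 over 4 genes. ATP5A1, the alpha subunit of the head, had 2543, 2368 and 2662 at E60 and 2587, 2779 and 2559.7 at E80 (0.07, adjusted p = 0.728), and after quantile normalization the median of complex V was -0.01.

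The 3 genes ATP5G1, ATP5G2 and ATP5G3 encode the same mature c subunit of the proton-driven ring and differ in their import sequences. ATP5G1 had signals of 784, 920.1 and 1050.04 at E60 and 1184, 1216 and 1229 at E80. The E80 arrays were close together and above all of E60 (log2 difference 0.41, standard error 0.11, adjusted p = 0.109). ATP5G2 had 795, 800.1 and 952 at E60 and 778, 959.8 and 846 at E80, with the days mixed (0.02, standard error 0.11, adjusted p = 0.950). ATP5G3 had 2179, 2118 and 2331 at E60 and 2393, 2444 and 2374 at E80, with a narrow gap (0.12, standard error 0.08, adjusted p = 0.451), and was at -0.01 after quantile normalization. Whether ATP5G1 differs from ATP5G2 in its change was not tested. The peripheral stalk, which holds the head in place, had a median of 0.03 over 4 genes, none of which kept the days apart. The assembly factors and ATP5S had a median of -0.05 over 4 genes, with 1 above 0, NDUFAF3 at -0.14 (adjusted p = 0.612) and NDUFAF1 at -0.07 (adjusted p = 0.884). All probe sets together also had a median of -0.05, with 44.3% above 0. None of these 4 genes was in the brightest 25%.

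**Figure D5:**
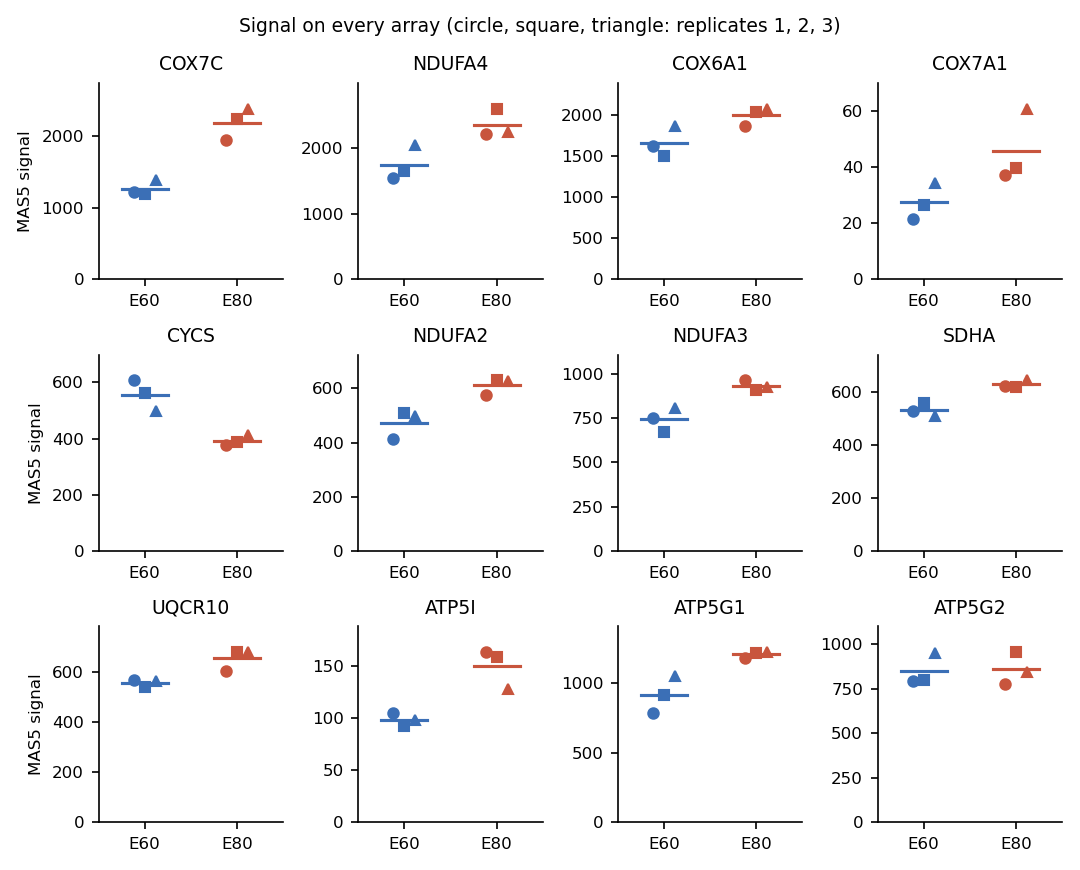
MAS5 signal (vertical axes, from 0) on each of the 6 arrays for 12 members of complexes I to V and cytochrome c; blue is E60, red E80, the shapes are replicates 1, 2 and 3 and the bars are means. COX7C shows the widest gap between the days among the bright members (1391 against 1942), CYCS is lower at E80, and ATP5G2 has its days mixed.

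Few other genes of the pathway passed the test. Of 126 symbols in 6 lists, where some genes stand under more than 1 name, 49 genes were measured. Of these 1 rose and 1 fell, against 0.933% and 1.01% of all probe sets. None of the 13 genes of mitochondrial DNA was among the 49. MTERF3, a factor that represses transcription of mitochondrial DNA, fell (log2 difference -0.65, standard error 0.12, adjusted p = 0.0391), from 203, 192 and 171 at E60 to 115, 122 and 123 at E80. The call was lost when any array other than E60 replicate 3 was left out, after quantile normalization (-0.57, adjusted p = 0.0526) and in the mean over the probe sets of the gene (-0.47, adjusted p = 0.622). Median centring and limma without the intensity trend lost it too, and 6 of 15 alternatives kept it. TFAM, which packs and transcribes mitochondrial DNA, was at -0.22 (adjusted p = 0.275), and all E80 arrays were below all E60 arrays. The median of the 7 measured genes of this list was -0.08. SQOR, a sulphide oxidase that feeds electrons to ubiquinone, rose (log2 difference 3.66, standard error 0.67, adjusted p = 0.0393), at very low signals of 3.35, 1.72 and 1.17 at E60 and 9.60, 37.7 and 37.8 at E80. It did not pass with 32 added to each signal (0.79, adjusted p = 0.0918), in limma without the intensity trend or without any single array. As for COX7C, almost no probe set of the whole array passed without the trend or without E60 replicate 1, E60 replicate 2 or E80 replicate 1. SQOR was the only one of 5 electron entry genes called. ETFB, a partner of the acyl-CoA dehydrogenases, was at 0.26 (adjusted p = 0.386).

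None of 15 carriers and energy transfer genes passed in limma (6 were higher at an unadjusted p under 0.05), with 12 above 0, 6 (40.0%) with all E80 arrays above all E60 arrays, and a median log2 difference of 0.19. That order was seen in 9.25% of all probe sets and in 17.4% of the brightest 25%. At the unadjusted limit 7.12% of all probe sets were higher and 10.8% lower. In the brightest 25%, 924 of 6000 probe sets were higher at that limit. The ADP/ATP carrier of dividing and general cells, SLC25A5, had signals of 382, 337 and 347 at E60 and 492, 443 and 527 at E80 (0.45, standard error 0.10, adjusted p = 0.0675). The heart and brain form SLC25A4 had 446, 493 and 499 at E60 and 614, 559.9 and 548 at E80 (0.26, standard error 0.09, adjusted p = 0.193). The mitochondrial creatine kinase CKMT1A, which moves ATP energy to creatine, had 124, 167 and 185 at E60 and 268, 237 and 262 at E80 (0.70, standard error 0.16, adjusted p = 0.0670). In each of these 3 the days did not overlap. Of 14 measured assembly factors none passed (1 higher and 1 lower at an unadjusted p under 0.05), and the median was 0.01. The largest differences were in SDHAF2, which adds the flavin to SDHA (0.50, adjusted p = 0.119), and in TMEM126B, of complex I assembly (-0.43, adjusted p = 0.129). Of 8 genes of inner membrane structure and mitochondrial mass none passed (1 lower at an unadjusted p under 0.05), with a median of 0.07, TOMM22 of the import pore at -0.36 (adjusted p = 0.121) and the prohibitin PHB2 at -0.21 (adjusted p = 0.361).

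Some markers of cell types also differed between the days. Beside the member values, the 3 measured of 10 cortical neuron markers had a summed signal of 7591 to 8168 at E60 and 9061 to 9629 at E80, with the synaptic gene SNAP25 risen, while the 3 measured of 5 markers of cycling cells summed to 458 to 494 at E60 and 174 to 297 at E80, with 2 of them fallen. The 6 measured of 7 astrocyte markers summed to 2070 to 2413 at E60 and 2981 to 4291 at E80, with 2 risen. The radial glia markers (4 of 9 measured) summed to 5099.7 to 5194 at E60 and 4362 to 4935 at E80, with HOPX risen and the other 3 below 0 without passing. A summed signal is set mostly by the brightest probe sets of a list. For radial glia these were FABP7 (mean 2757 at E60, 2701 at E80) and VIM (2150 and 1669). For neurons they were MAP2 and STMN2, which did not pass (adjusted p = 0.378 and 0.294 in limma). DCX, also on the neuron list, was not among the 3 measured. By quantitative PCR the study reports it as down-regulated at E80. Markers of meninges and fibroblasts (4 of 6 measured) summed to 819 to 1291 at E60 and 332 to 847 at E80, with a median log2 difference of -0.98, and those of endothelium (5 of 5) had a median of -0.24, with none called in either list by limma (3 and 2 lower at an unadjusted p under 0.05). Oligodendrocyte, microglia and choroid plexus markers also had none called, with 1 higher in each list at that unadjusted limit, and the red cell markers had 0. Over all probe sets 7.12% were higher and 10.8% lower at that limit. In whole tissue, more cells of a type and more RNA per cell cannot be told apart. The part of the marker differences in the member values was not tested. The 5 measured of 8 choroid plexus markers summed to 90.3 to 176 at E60 and to 112 and 197 on E80 replicates 1 and 2, but to 5466 on E80 replicate 3. There TTR alone had a signal of 4475 and ENPP2 one of 692. The sums on E80 replicates 1, 2 and 3 were 187, 124 and 507 for oligodendrocytes and 108, 131 and 333 for microglia. For astrocytes they were 2981, 3224 and 4291, so E80 replicate 3 was the highest E80 array in each of these lists. Without E80 replicate 3 the median log2 difference of the members was 0.13, 55 of 64 were above 0, and the log2 difference of COX7C was 0.72 (adjusted p = 0.0472), while CYCS was at -0.54 (adjusted p = 0.0908).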

How the data were processed

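Cortical RNA of pig embryos was hybridised to 6 Affymetrix Pig Genome Arrays, 3 at embryonic day 60 and 3 at embryonic day 80. The deposited values are MAS5 signal intensities on a linear scale, scaled by the authors to a like trimmed mean on every array; the MAS5 version is not named in the sources used here, and of the detection calls the study gives totals per array, so no filter on detection was applied. The 3-fold limit of the study served as an alternative. Of 24123 probe sets, 124 controls were left out. The log2 signals of the other 23999 were fitted with limma (version 3.58.1, in R 4.3.3) with an intensity trend, all 6 arrays and no covariates, and p-values were adjusted by the Benjamini-Hochberg method over all of them. The fit was tested on simulated data.

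Gene names come from the platform annotation. All 64 members were found in the RefSeq gene table under the same symbol, and 4 probe sets with several symbols were left out. The members and lists were chosen with earlier results of these data known. Members named in the text are those past the test, the 5 largest differences each way above the median signal, the 2 brightest and 2 most different of each complex, isoform pairs, CYCS and the SDH genes (25 in all), and 8 more, chosen after their values were seen, because their days did not overlap or their probe sets disagreed. COX8H, NDUFS1 and NDUFV3 were also mentioned after values were seen, and so were the parts of complexes I and V. Of each other list, those past the test and the 2 with the smallest p are named, and SLC25A4 as the isoform partner of SLC25A5. The labels give no replicate numbers: those used here follow the order of the arrays and pair nothing. A search of promoters was planned and not run, and no sequences or coordinates are given, as no sequence of these genes was used here. The smallest two-sided p of an exact permutation of 3 against 3 arrays is 0.1, so single genes were not tested in that way. The number of arrays limits the precision.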

Additional observations from a re-analysis of the deposited data

How the results depend on the processing

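The tests were repeated under 15 alternatives, of which centring on the brightest 25% of probe sets was chosen after seeing the data. Of 659 values of 44 named genes, 606 kept their direction and side of the threshold. Most of these values belong to genes that did not pass in the main fit and so had no call to lose. The calls of COX7C, MTERF3 and SQOR were kept under 10 of 15, 6 of 15 and 6 of 14 alternatives. Apart from the shift by median centring given below, the causes of the changes were not tested, and 3 arrays a day limit all calls. Leaving out single arrays gave 0 to 1 members risen and 0 to 1 fallen, and 0 risen and 0 to 1 fallen among the other pathway genes; without E60 replicate 1, E60 replicate 2 or E80 replicate 1, only 1 of all 23999 probe sets passed, and 200 passed without E80 replicate 3, against 467 with all arrays. Members risen were 4 with array weights and 0 without the intensity trend, with the mean over probe sets of a gene and by a 3-fold rule. Members fallen were 1, CYCS, after quantile normalization, among the brightest 66% of probe sets, with array weights and with the gene mean. Other pathway genes risen were 2 with median centring, 2 among the brightest 66%, 3 with array weights, and 0 with 32 added or without the trend; those fallen were 0 after quantile normalization, with median centring, without the trend and with the gene mean. Over all probe sets 763 passed among the brightest 66%, 1169 with array weights and 0 without the trend (limma; 3706 at an unadjusted p under 0.05).

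Median centring moved every log2 difference up by the same 0.12. The median of all probe sets went from -0.05 to 0.06, so the gap between members and all probe sets was unchanged. The median was then 0.22 for all members, 0.22 for complex I, 0.28 for complex II and 0.27 for complex III. It was 0.21 for complex V and 0.0675 for the assembly factors. Quantile normalization gave 0.11 for complex II, 0.11 for complex IV, -0.0101 for complex V and 0.0510 for the assembly factors, and the gene mean gave -0.15 for the latter. Signs turned after quantile normalization for ATP5A1 (-0.0369), ATP5G2 (-0.0543), ATP5G3 (-0.0101), COX6C (-0.0529), SDHB (-0.00529) and NDUFAF1 (0.0371), with median centring for NDUFAF1 (0.0491), NDUFB9 (0.0703) and NDUFS3 (0.0791), and with the gene mean for NDUFS3 (0.31). With single arrays left out, ATP5G2 ranged from -0.0609 to 0.11, NDUFA9 from -0.38 to 0.0966, NDUFAF1 from -0.16 to 0.0688, NDUFB9 from -0.16 to 0.0556 and NDUFS3 from -0.0829 to 0.0357; none of these genes passed the test. No paired analysis was possible because the labels carry no replicate numbers (those in the text only name arrays, in their order) and do not tie embryos of different days to each other.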
